A study of Mus musculus with 6 samples.

Results

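Osteoclasts are the bone-resorbing cells of the myeloid lineage, and 8 genes known for their differentiation, fusion and resorption were followed in mouse bone marrow derived macrophages with and without AEG-1. The genes were taken from a list, matched by symbol among the 46983 genes of the deposited count table, and all 8 were found. They are Tnfrsf11a and Oscar (receptors), Nfatc1 (transcription factor), Dcstamp, Ocstamp and Atp6v0d2 (fusion), and Acp5 and Ctsk (resorption). The wild-type (WT) group held 3 libraries from C57BL/6 mice, and the AEG-1 KO group held 3 libraries from AEG-1 knockout mice labelled with the same strain, called knockout libraries 1 to 3 after their replicate numbers. Mtdh encodes AEG-1, short for astrocyte elevated gene-1. In both groups marrow cells from femurs were grown for 7 days with 20% L929 conditioned medium, a usual source of the growth factor M-CSF, and 10% serum, and the labels list no further treatment. RANKL is not among the additions the labels list. The sources used here do not give the age of the mice, how and on which background the knockout was made, or whether replicates were separate animals. The p-values therefore rest on library-to-library spread alone, and that spread may be technical.

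Macrophages and osteoclasts share a precursor. M-CSF, acting through the receptor CSF1R, keeps that precursor alive, and RANKL, acting through RANK (the product of Tnfrsf11a), turns it towards the osteoclast by way of TRAF6, NF-kB and AP-1. Receptors such as OSCAR and TREM2 add a calcium signal through the adaptors FcR gamma and DAP12, and the signals meet at NFATc1, which drives the fusion genes and the genes of the acid and proteases that dissolve bone. In macrophage cultures without RANKL the programme is known to stay largely off.

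Libraries held 42548170 to 58947230 counts, so that 1 CPM (reads scaled to a common library size with TMM factors) stood for 42.6 to 58.5 reads. Mtdh stood at 254 to 273 CPM in WT and 0.333 to 0.517 CPM in the knockout, a fall to 0.151% of WT, so every library carried the Mtdh level of its label. The macrophage label was met: all 12 macrophage markers passed the filter on low counts, and their summed level was 21600 to 22300 CPM in WT and 21000 to 21700 CPM in the knockout. The defining osteoclast gene Calcr, the calcitonin receptor, had at most 1 read in any library. Of the 8 genes, 6 passed the filter and were tested. The edgeR quasi-likelihood test with Benjamini-Hochberg adjustment over 16115 genes called 2 of them higher and 1 lower in the knockout libraries (threshold, adjusted p of 0.05). Over all genes tested, 6.35% were called, 3.31% higher and 3.04% lower. Dcstamp passed the filter through the AEG-1 KO libraries alone, so the 3 of 6 are not a measure of all 8 genes.

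**Figure D1:**
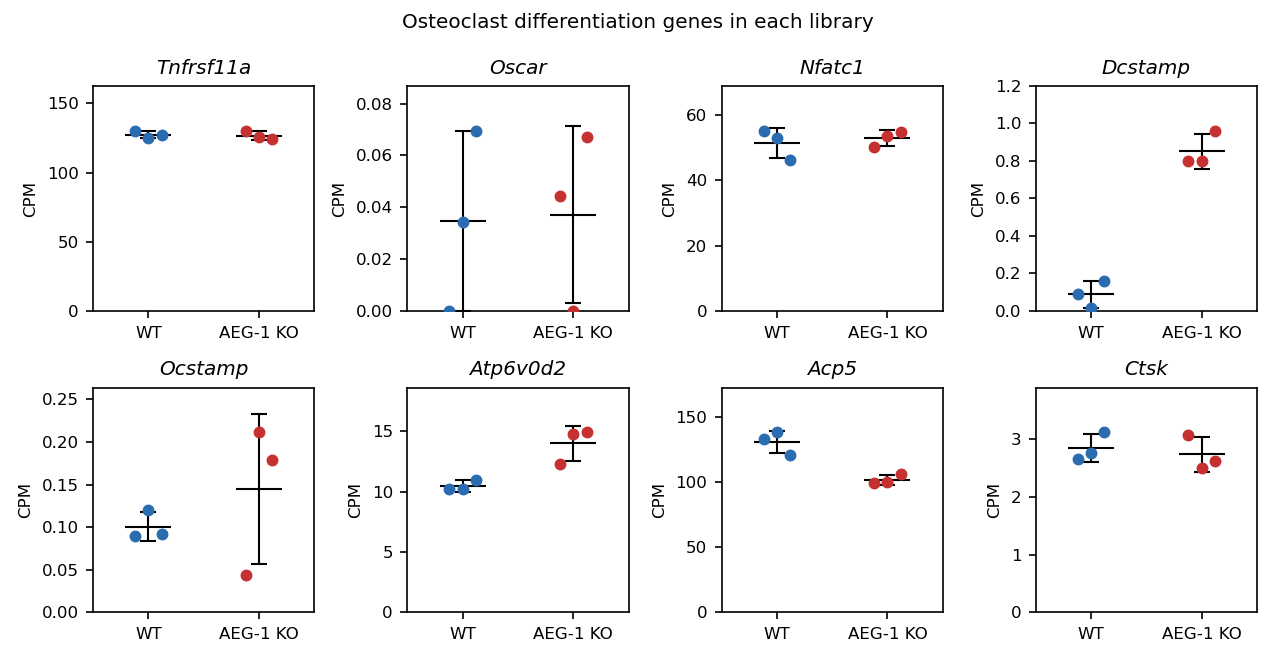
Level of each of the 8 genes in CPM (vertical axes, each from 0) in the WT (blue) and AEG-1 KO (red) libraries, with the mean (dash) and SD (bar, n = 3). Dcstamp and Atp6v0d2 lie higher in every AEG-1 KO library than in any WT library, Acp5 lies lower, and the other genes overlap.

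The windows around the start sites of a pair of resorption genes are shown because these promoters are where NFATc1, PU.1, AP-1 and MITF are known to act in osteoclasts. Acp5 fell and Ctsk did not pass the test, and the difference between these changes was not tested. From RefSeq (GRCm38.p6), 6 windows of 300 bases were kept for 4 of the 8 genes, and 3 of the windows are of Acp5. This is a count of windows kept, and it does not show that RefSeq lacks windows for the other genes. Each line runs 5′ to 3′ on the gene's strand, the minus strand for Acp5 at chr9:22130549-22130848 and the plus strand for Ctsk at chr3:95498960-95499259. Capitals mark matches, on either strand, to the NFAT core GGAAA, the PU.1 core GAGGAA, the AP-1 site TGANTCA and the MITF E-boxes CATGTG and CACGTG.
Acp5: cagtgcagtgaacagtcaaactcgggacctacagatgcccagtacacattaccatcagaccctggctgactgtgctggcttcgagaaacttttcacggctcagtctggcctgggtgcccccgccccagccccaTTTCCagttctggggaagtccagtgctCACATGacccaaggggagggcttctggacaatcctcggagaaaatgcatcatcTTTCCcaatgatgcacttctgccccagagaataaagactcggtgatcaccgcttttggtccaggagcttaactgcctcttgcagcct
Ctsk: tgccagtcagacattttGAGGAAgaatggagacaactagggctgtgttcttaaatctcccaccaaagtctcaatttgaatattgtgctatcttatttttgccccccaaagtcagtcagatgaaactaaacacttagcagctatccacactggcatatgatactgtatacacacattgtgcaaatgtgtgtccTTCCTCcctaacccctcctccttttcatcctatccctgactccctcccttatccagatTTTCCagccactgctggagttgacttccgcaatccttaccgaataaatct

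The Acp5 window held 2 NFAT cores and 1 MITF E-box. The other 2 Acp5 windows held 1 NFAT core each and no match to the other motifs. The Ctsk window held 1 NFAT core and 2 PU.1 cores. Of all 32851 windows in the table, 61.3% held an NFAT core, 28.3% a PU.1 core, 7.81% an AP-1 site and 20.4% an E-box of these letters, and a PU.1 core can overlap an NFAT core. The Oscar window held 4 NFAT cores, 2 PU.1 cores and 1 E-box, the most of the 6 windows, and the Tnfrsf11a window held none of the 4 motifs. A match is a description of letters and not a measured binding site.

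Per length, the genes lay in a wide order. RPKM (CPM per kilobase of exon) allows levels of different genes to be compared. In WT, Acp5 stood at 64.4 ± 4.34 RPKM (SD, n = 3), Tnfrsf11a at 21.3 ± 0.365, Nfatc1 at 6.88 ± 0.62, Atp6v0d2 at 3.85 ± 0.175 and Ctsk at 1.89 ± 0.159. The ranges of neighbours among these 5 genes did not overlap in either genotype. Dcstamp, Ocstamp and Oscar followed at 0.0336 ± 0.0272, 0.0275 ± 0.00454 and 0.0187 ± 0.0188 RPKM in WT. These 3 could not be ordered in WT, since the ranges of neighbours overlapped. In AEG-1 KO the Dcstamp level, 0.32 ± 0.0349 RPKM, was 8.08 times that of Ocstamp and the ranges were separate. It was still below Ctsk, which was 5.67 times higher.

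**Figure D2:**
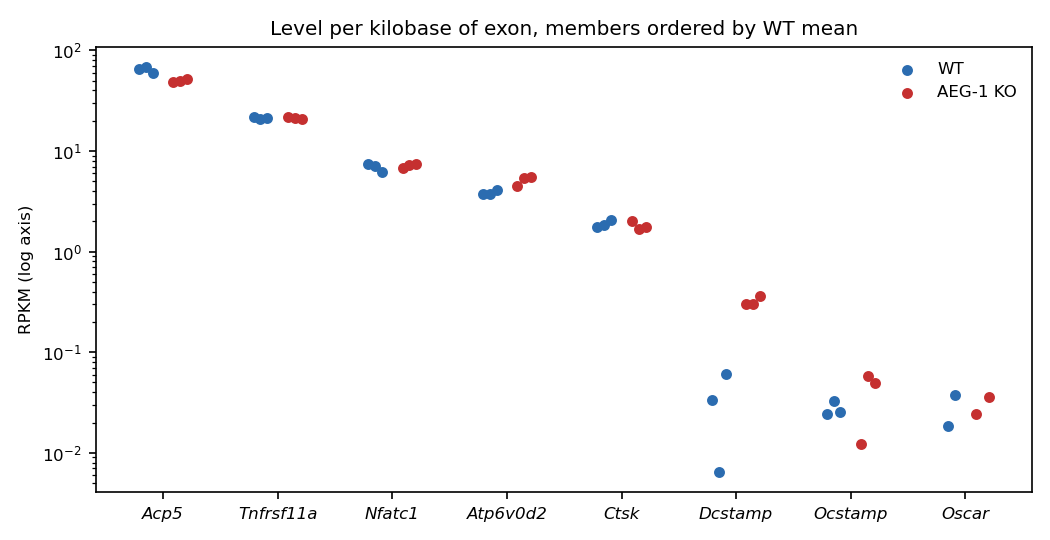
Level of the 8 genes per kilobase of exon (RPKM, log axis) in each WT (blue) and AEG-1 KO (red) library, ordered by the WT mean; libraries at 0 reads are not drawn. Acp5 is the highest at 64.4 RPKM in WT, and Dcstamp is the gene whose genotypes lie far apart.

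The receptors came first in the pathway. Tnfrsf11a (ENSMUSG00000026321, GRCm38 chromosome 1, 105780718 to 105847981), which encodes RANK, ranked high, with 89.2% of tested genes below it in CPM. It had 130, 125 and 127 CPM in the WT libraries and 130, 126 and 124 CPM in the knockout libraries (replicates 1 to 3 in that order, here and throughout). The groups overlapped fully, and the log2 fold change was -0.01 (95% interval -0.10 to 0.09; edgeR BH-adjusted p = 0.953). Oscar (ENSMUSG00000054594, chromosome 7, 3609813 to 3616157), the collagen-binding costimulatory receptor, had 0, 2 and 3 reads in WT and 2, 0 and 3 reads in AEG-1 KO. It was not tested. A count of 0 allowed up to 0.0671 CPM in WT replicate 1 and 0.0704 CPM in knockout library 2, for counting error only. The pooled ratio of AEG-1 KO to WT was 1.11 (95% exact binomial interval 0.254 to 4.8, counting error only). Only a large difference could have been seen at this depth.

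RANKL and its decoy receptor were close to silent. Tnfsf11, which encodes RANKL, had no read in any WT library and 3, 0 and 2 reads in AEG-1 KO. Tnfrsf11b, which encodes the decoy receptor osteoprotegerin, had 5, 3 and 5 reads in WT and 6, 1 and 3 reads in AEG-1 KO. The M-CSF receptor stood in contrast. Csf1r had 2006, 1941 and 1876 CPM in WT and 2511, 2571 and 2497 CPM in the knockout, so each AEG-1 KO library lay above each WT library (log2 fold change 0.38 ± 0.04 SE, edgeR BH-adjusted p = 0.000919). Csf1, which encodes M-CSF, had 2.78 to 3.79 CPM in WT and 3.83 to 4.6 CPM in the knockout. It was not called (edgeR BH-adjusted p = 0.114) and was chosen after its values were seen. In the list of RANK and M-CSF ligands, receptors and proximal signalling, Csf1r was the single call among 16 tested genes, where 6.35% of all genes were called. At an unadjusted p of 0.05, 2 genes of that list were higher and 1 lower, where 11.2% of all genes were higher and 10.3% lower. Traf6, the adaptor of RANK, had 42.6 ± 1.6 CPM in WT and 45.2 ± 2.71 CPM in the knockout (log2 fold change 0.08, 95% interval -0.05 to 0.21; edgeR BH-adjusted p = 0.463). In bulk RNA, fewer cells of a type and less RNA per cell cannot be told apart, here and in every comparison that follows.

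Nfatc1 (ENSMUSG00000033016, chromosome 18, 80606205 to 80713071), the transcription factor at which the signals meet, did not pass the test. Its level was 55.1, 52.9 and 46.2 CPM in WT and 50.3, 53.7 and 54.9 CPM in the knockout. The lowest and the highest of the 6 values were both WT libraries. The log2 fold change was 0.04 (95% interval -0.12 to 0.20; edgeR BH-adjusted p = 0.786). Its relatives Nfatc2 and Nfatc3 stood at 5.46 and 9.08 RPKM in WT, beside 6.88 RPKM for Nfatc1, and their log2 fold changes were -0.14 and 0.12 (edgeR BH-adjusted p = 0.289 and 0.227).

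Dcstamp showed the largest difference of the 8 genes. It encodes the multipass membrane protein DC-STAMP, needed for the fusion of osteoclasts and of macrophage giant cells. Dcstamp (ENSMUSG00000022303, chromosome 15, 39745930 to 39760938) had 4, 1 and 7 reads in the WT libraries, against 36, 34 and 43 reads in the knockout libraries. In CPM these were 0.0895, 0.0171 and 0.162 in WT and 0.799, 0.798 and 0.96 in AEG-1 KO. Every AEG-1 KO library lay far above every WT library, as 26.8% of all tested genes did not overlap in one direction or the other. The log2 fold change was 3.34 ± 0.40 (SE; edgeR BH-adjusted p = 0.0016). Pooled over libraries, 12 reads in WT against 113 in AEG-1 KO gave a ratio of 10.4 (95% exact binomial interval 5.73 to 20.7, counting error only). The knockout level was low, with 15.8% of tested genes below it in the mean of the knockout libraries. With so few WT reads, single libraries moved the size. The log2 fold change was 2.74 without WT replicate 2 and 4.06 without WT replicate 3, and the call remained in each of the 6 fits without 1 library (edgeR BH-adjusted p up to 0.00862). Dcstamp reached the count minimum in the AEG-1 KO libraries alone, the group where it was high. That favours a call, so these p-values are not separate support for the difference.

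Dcstamp lies on the chromosome of the targeted gene, 5.66 Mb from the start of Mtdh. The tested genes on either side of it rose with it. Rims2, a vesicle release gene on the same strand that starts 0.548 Mb before Dcstamp, had 14, 15 and 15 reads in WT and 211, 178 and 204 in AEG-1 KO. Dpys, which encodes the pyrimidine-degrading enzyme dihydropyrimidinase on the other strand, starts 0.0226 Mb from the start of Dcstamp. It had 1, 6 and 1 reads in WT and 52, 29 and 51 in AEG-1 KO. All 3 genes thus had few reads in WT and higher counts in each AEG-1 KO library, with log2 fold changes of 3.88, 3.34 and 4.12 for Rims2, Dcstamp and Dpys (edgeR BH-adjusted p = 3.67e-06, 0.0016 and 0.000997).

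Other genes of the region moved in both directions. Rspo2, which encodes a Wnt-enhancing secreted protein 3.27 Mb away, had 2, 6 and 1 reads in WT and 34, 23 and 23 in the knockout, so it too was near 0 in WT and higher in each knockout library (log2 fold change 3.24, edgeR BH-adjusted p = 0.002). Emc2, a membrane protein insertion gene 3.73 Mb away, rose from 92 ± 7.14 CPM to 176 ± 7.35 (edgeR BH-adjusted p = 6.63e-05). Rspo2 and Emc2 were chosen after their values were seen. Fzd6, a Wnt receptor gene 0.74 Mb away, fell from 0.822 ± 0.0836 to 0.127 ± 0.0885 CPM (edgeR BH-adjusted p = 0.00268). Lrp12, Slc25a32 and Dcaf13, all within 1 Mb, had log2 fold changes of -0.03, 0.19 and -0.14 and did not pass the test (edgeR BH-adjusted p = 0.788, 0.148 and 0.167). Of 31 tested genes that start within 5 Mb of Dcstamp, Dcstamp included, 7 rose and 7 fell, or 45.2%. Dcstamp, Dpys, Rspo2 and Fzd6 reached the count minimum in the libraries of 1 genotype alone, which favours a call without forcing it. Of 68 such genes among all genes tested, 20 were called. Without the 4 of this region, 10 of 27 genes were called, or 37%. DESeq2 called 4 genes of the region higher and 7 lower, and it gave Dcstamp no adjusted p. The 14 calls became 9 without knockout library 1. On all of chromosome 15 11.2% of 544 tested genes were called, and on the other chromosomes 6.18% of 15571. Whether the difference in Dcstamp belongs to its position beside Mtdh or to the loss of AEG-1 cannot be told apart in this design.

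**Figure D3:**
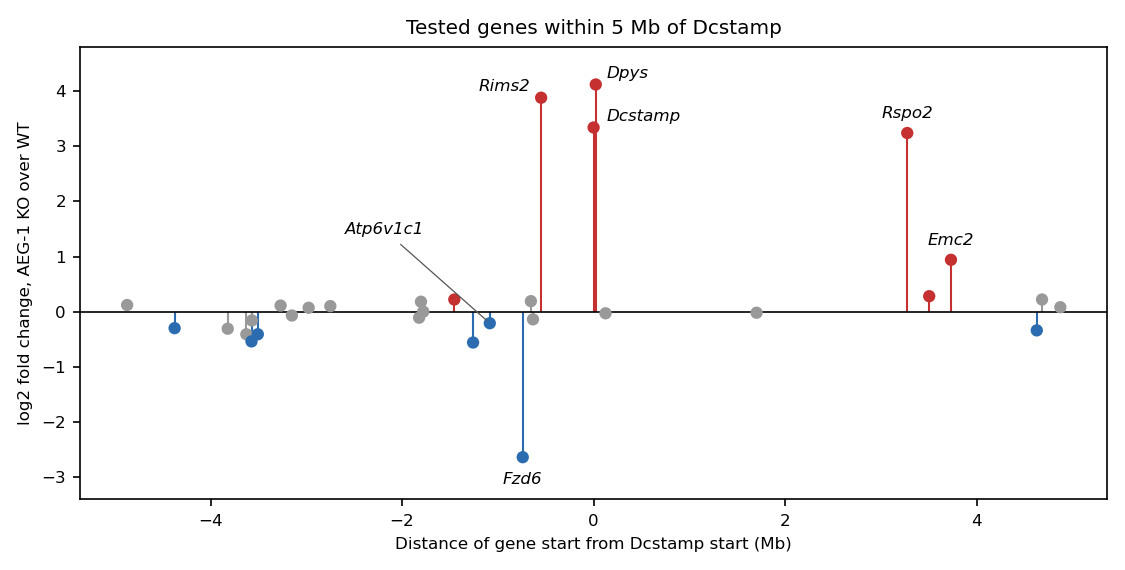
Tested genes within 5 Mb of Dcstamp, with the log2 ratio of AEG-1 KO to WT on the vertical axis against the distance of its start from that of Dcstamp in Mb; red was called higher, blue lower, grey not called. Rims2, Dcstamp and Dpys stand next to each other at 3.88, 3.34 and 4.12, and 14 of the 31 genes are coloured.

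Ocstamp (ENSMUSG00000027670, chromosome 2, 165393760 to 165400405), the second fusion protein of this kind and on another chromosome, did not show such a rise. It had 4, 7 and 4 reads in WT and 2, 9 and 8 reads in AEG-1 KO. The AEG-1 KO libraries lay on both sides of the WT range. It was too low to be tested, and the pooled ratio was 1.4 (95% exact binomial interval 0.674 to 2.96, counting error only). Ocstamp shares a near-identical stretch with 11 other genes, so these reads are uncertain.

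Atp6v0d2, a V-ATPase subunit known both for proton pumping and for fusion, rose. Atp6v0d2 (ENSMUSG00000028238, chromosome 4, 19876841 to 19922605) had 10.2, 10.2 and 11 CPM in WT and 12.3, 14.8 and 14.9 CPM in the knockout. The groups did not overlap, with knockout library 1 nearest to WT. Atp6v0d2 had a log2 fold change of 0.42 ± 0.09 (SE; edgeR BH-adjusted p = 0.0224). The call was lost without WT replicate 2, knockout library 2 or knockout library 3 (edgeR BH-adjusted p = 0.102, 0.115 and 0.081). Its ubiquitous counterpart Atp6v0d1 did not pass the test (log2 fold change -0.05, edgeR BH-adjusted p = 0.546). Per length, Atp6v0d2 made up 3.1%, 3.01% and 3.42% of the d-subunit RPKM in the WT libraries and 3.77%, 4.66% and 4.62% in the AEG-1 KO libraries, so that each AEG-1 KO share lay above each WT share.

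Acp5, which encodes the tartrate-resistant acid phosphatase used to stain osteoclasts and also made by macrophages, fell. Acp5 (ENSMUSG00000001348, chromosome 9, 22126727 to 22135711) had 133, 138 and 121 CPM in WT and 98.9, 100 and 106 CPM in the knockout. Each AEG-1 KO library lay below the lowest WT library. The mean was 131 ± 8.8 CPM in WT and 102 ± 3.57 CPM in the knockout (log2 fold change -0.37 ± 0.06 SE, edgeR BH-adjusted p = 0.00597), or 77.6% of WT. The call remained in all 6 fits without 1 library (edgeR BH-adjusted p up to 0.0315). Acp5 overlaps an antisense gene, 6530413G14Rik, so that some of its reads are uncertain.

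Ctsk (ENSMUSG00000028111, chromosome 3, 95499256 to 95509362), the protease that cleaves bone collagen, did not pass the test. It had 2.66, 2.77 and 3.12 CPM in WT and 3.08, 2.51 and 2.63 CPM in the knockout. The groups overlapped, and the log2 fold change was -0.05 (95% interval -0.33 to 0.23; edgeR BH-adjusted p = 0.866). The 3 genes with no call thus had narrower limits for Tnfrsf11a than for Ctsk, the least abundant of them.

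Beyond the 8 genes, 8 lists of the pathway were read from the same fit. They held 165 genes, of which 146 were tested. Of these, 19 rose and 10 fell, while 117 did not pass, so that 19.9% were called, beside 6.35% of all genes tested. Their median log2 fold change was 0.02, and that of all genes was 0.01. The number of calls was 15 without WT replicate 2 and 14 without knockout library 2. The lists were chosen with earlier results of these data known. Of the cell type marker lists, the stromal, macrophage, neutrophil and monocyte lists had 30%, 50%, 53.8% and 58.3% called. The lymphocyte and dendritic cell lists had 16.7% and 0%. A share above that of all genes was thus not particular to the pathway. For each pathway list below, the edgeR shares over all genes tested were 3.31% higher and 3.04% lower.

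Costimulatory receptors and their adaptors moved in both directions. Of 21 tested genes of the costimulatory receptor, adaptor and calcium signalling list, 4 rose, 3 fell and 14 did not pass (median log2 fold change -0.02). Trem2, a lipid-sensing receptor that pairs with DAP12, had 279, 257 and 219 CPM in WT and 340, 367 and 388 CPM in the knockout (log2 fold change 0.54 ± 0.08 SE, edgeR BH-adjusted p = 0.00597). Fcgr3, an IgG receptor with a near-identical stretch in Fcgr2b, rose by a log2 value of 0.39 (edgeR BH-adjusted p = 0.00552). Blnk, an adaptor between Syk-type kinases and phospholipase C gamma with near-identical stretches in Tango2 and Wdr33, fell by 0.40 on the log2 scale (edgeR BH-adjusted p = 0.0011). Of the adaptors of OSCAR and TREM2, Fcer1g, the FcR gamma chain, fell from 733 ± 35.1 to 605 ± 37.6 CPM (edgeR BH-adjusted p = 0.0196). Tyrobp, which encodes DAP12, had a log2 fold change of -0.03 (95% interval -0.17 to 0.11; edgeR BH-adjusted p = 0.845). Whether these adaptors differ from each other was not tested, and both were chosen after their values were seen. The call of Fcer1g was lost without WT replicate 2, knockout library 1 or knockout library 2 (edgeR BH-adjusted p = 0.0883, 0.0579 and 0.0762).

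Vav3, a signalling protein of the Vav family, and Itgav, the alpha chain of the vitronectin receptor of osteoclasts, rose by log2 values of 0.31 and 0.32 (edgeR BH-adjusted p = 0.00615 and 0.0119). Vav3 lost its call without knockout library 2 (edgeR BH-adjusted p = 0.0534). Itgav lost it without WT replicate 2 or knockout library 2 (edgeR BH-adjusted p = 0.0629 and 0.0871). Itgb3, the beta chain that pairs with Itgav in osteoclasts, was low at 1.16 to 1.48 CPM in WT and 1.6 to 2 CPM in the knockout, and was not called (edgeR BH-adjusted p = 0.136). Siglec15 had no read in any library.

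Of 26 osteoclast transcription factors, all tested, 6 rose and 20 did not pass (median log2 fold change 0.08). At an unadjusted p of 0.05, 8 were higher and 1 lower, and DESeq2 called 7 higher and 1 lower. DESeq2 called 3.73% of all genes higher and 4.13% lower, and the shares at an unadjusted p of 0.05 were 11.2% and 10.3%. Bhlhe40, a basic helix-loop-helix repressor, had 9.94, 10.1 and 8.53 CPM in WT and 14.2, 15.7 and 16.3 CPM in the knockout, so the groups were well apart (log2 fold change 0.69 ± 0.09 SE, edgeR BH-adjusted p = 0.0019). Tfec, a macrophage member of the MITF family, rose from 14.7 ± 0.545 to 19.9 ± 0.29 CPM (edgeR BH-adjusted p = 0.0028). Prdm1, which encodes Blimp-1, a repressor of osteoclast inhibitors, rose by a log2 value of 0.33 (edgeR BH-adjusted p = 0.0108). The AP-1 genes Fosl2 and Fos rose by 0.20 and 0.27 (edgeR BH-adjusted p = 0.0347 and 0.0381).

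Several of these calls were lost in fits with 1 library fewer, while the size of the change moved little. Prdm1 lost its call without WT replicate 2 or knockout library 2 (log2 fold change 0.30 in both, edgeR BH-adjusted p = 0.0632 and 0.0813). Fosl2 lost it without each of the 6 libraries in turn (log2 fold change 0.18 to 0.22, edgeR BH-adjusted p from 0.0543 to 0.171) and with no low-count filter (edgeR BH-adjusted p = 0.0851), and Fos without each except WT replicate 1 (edgeR BH-adjusted p from 0.0524 to 0.154). Bhlhe40 and Tfec remained called in all 6 such fits. The remaining call of the list, Mitf, rose by a log2 value of 0.21 (edgeR BH-adjusted p = 0.0389). Mitf lost its call without each library except WT replicate 3 (edgeR BH-adjusted p from 0.0697 to 0.196). Upper-quartile scaling, no scaling factors and no low-count filter also removed it (edgeR BH-adjusted p = 0.0617, 0.0514 and 0.0824). Mitf was chosen after its values were seen. Spi1, which encodes PU.1, did not pass the test, with a log2 fold change of -0.03 (95% interval -0.26 to 0.20; edgeR BH-adjusted p = 0.899).

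Of 21 tested inhibitors of osteoclast differentiation, 1 rose, 2 fell and 18 did not pass (median log2 fold change 0.00). Ifngr1, a chain of the interferon gamma receptor, rose from 141 ± 2.97 CPM in WT to 186 ± 5.24 (log2 fold change 0.40 ± 0.04 SE, edgeR BH-adjusted p = 0.000882). Il10, an inhibitory cytokine gene, had 41.9, 40.3 and 43.1 CPM in WT and 30.3, 25.5 and 24.8 CPM in the knockout, with no overlap (log2 fold change -0.64 ± 0.08 SE, edgeR BH-adjusted p = 0.00169). Ptpn6, which encodes the phosphatase SHP-1, fell by 0.25 on the log2 scale (edgeR BH-adjusted p = 0.0121). It lost its call without WT replicate 2 or knockout library 2 (edgeR BH-adjusted p = 0.0591 and 0.0707). Irf8 and Bcl6, repressors of Nfatc1, were not called, with log2 fold changes of 0.17 and 0.00 (edgeR BH-adjusted p = 0.252 and 0.994). Both, like Calcr, Itgb3, Siglec15, Spi1, Nfatc2, Nfatc3 and Atp6v0d1, were chosen after their values were seen.

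Of 19 tested genes of macrophage and osteoclast fusion, 4 rose and 15 did not pass (median log2 fold change 0.09). At an unadjusted p of 0.05, 6 were higher and 4 lower, and DESeq2 called 4 higher and 2 lower, beside the same shares of all genes (11.2% and 10.3%, and 3.73% and 4.13%). P2rx7, the ATP-gated channel P2X7, rose from 85.2 ± 1.46 to 104 ± 2.07 CPM (edgeR BH-adjusted p = 0.00397). Ptger4, a prostaglandin E receptor gene, rose by a log2 value of 0.41 (edgeR BH-adjusted p = 0.00745), and its value is uncertain because it overlaps Ttc33 on the other strand. Cd44, the hyaluronan receptor, and Adam8, a membrane metalloprotease, rose by 0.26 and 0.20 (edgeR BH-adjusted p = 0.0121 and 0.0448). Cd44 lost its call without WT replicate 2 or knockout library 2 (edgeR BH-adjusted p = 0.0671 and 0.0961), and Adam8 without each of the 6 libraries in turn (edgeR BH-adjusted p from 0.0624 to 0.131).

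Of 19 tested genes of the resorption machinery, 1 rose, 3 fell and 15 did not pass (median log2 fold change -0.02). Spp1, which encodes osteopontin, rose from 581 ± 11.2 to 700 ± 19 CPM (edgeR BH-adjusted p = 0.00453). Mmp9, a gelatinase, fell from 51 ± 3.91 to 38 ± 1.53 CPM (edgeR BH-adjusted p = 0.00552). Rab38, a small GTPase of lysosome-related organelles, and Plekhm1, a lysosome-fusion adaptor, fell by 0.60 and 0.22 in log2 units (edgeR BH-adjusted p = 0.00997 and 0.0341). Rab38 lost its call without knockout library 2 (edgeR BH-adjusted p = 0.0551) and Plekhm1 without each library except WT replicate 3 (edgeR BH-adjusted p from 0.0564 to 0.136). The acid-secreting pair Tcirg1 and Clcn7 had log2 fold changes of 0.10 and 0.06 (edgeR BH-adjusted p = 0.646 and 0.463), and Car2, carbonic anhydrase 2, stayed below the filter at 0.0893 to 0.377 CPM. These last 3 were chosen after their values were seen.

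Among 17 tested V-ATPase subunits and accessory proteins, which did not include Atp6v0d2, 1 rose, 1 fell and 15 did not pass (median log2 fold change -0.06). The subunit that fell, Atp6v1c1, starts 1.08 Mb from Dcstamp on chromosome 15. It had 229, 236 and 238 CPM in WT and 200, 210 and 196 CPM in the knockout (log2 fold change -0.21 ± 0.04 SE, edgeR BH-adjusted p = 0.0183). Its call was lost without WT replicate 2, knockout library 1 or knockout library 3 (edgeR BH-adjusted p = 0.0876, 0.0735 and 0.063). Atp6ap2, the prorenin receptor with a near-identical copy in Gm36448, rose by a log2 value of 0.20 (edgeR BH-adjusted p = 0.0332). It lost its call without each library except WT replicate 3 (edgeR BH-adjusted p from 0.0814 to 0.169) and with upper-quartile scaling (edgeR BH-adjusted p = 0.0562). Of 7 tested coupling factors, proteins by which osteoclasts act on bone-forming cells, 1 rose and 1 fell. Sema4d, a semaphorin gene, rose from 371 ± 15.9 to 471 ± 5.61 CPM (edgeR BH-adjusted p = 0.00192). The complement gene C3 fell by 0.19 on the log2 scale (edgeR BH-adjusted p = 0.0395), a call lost without WT replicates 1 or 2 or knockout library 2 or 3 (edgeR BH-adjusted p from 0.0697 to 0.159).

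**Figure D4:**
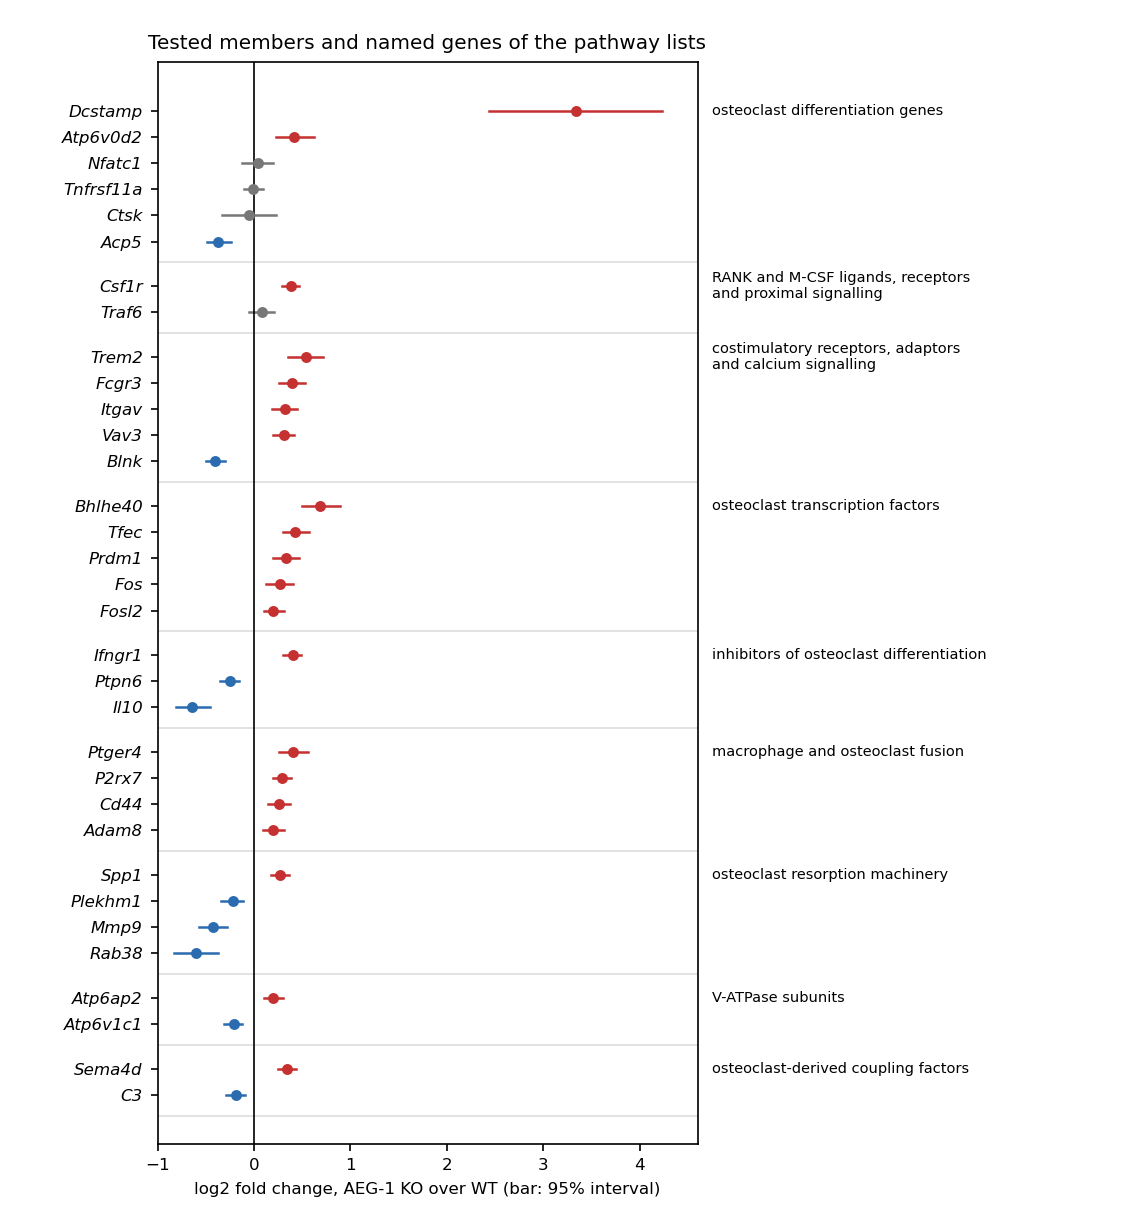
Log2 ratio of AEG-1 KO to WT (horizontal axis) for the 6 tested genes of the 8 and of the named genes of the pathway lists, with the 95% interval (bar); red was called higher, blue lower, grey not called. Dcstamp at 3.34 stands alone, and every other gene drawn lies between -0.64 and 0.69.

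Markers of other cells differed between the same libraries. Beside the edgeR calls below, 3.31% of all genes tested were called higher and 3.04% lower. Of 12 tested monocyte and progenitor markers 7 rose, and their summed level was 198 to 226 CPM in WT and 263 to 282 CPM in the knockout. Of 13 tested neutrophil markers 6 rose and 1 fell, at a summed 451 to 459 CPM in WT and 508 to 557 CPM in the knockout. Of 10 tested osteoblast and stromal markers 3 rose, Col1a2, Dcn and Col3a1 (the last lost its call in 5 of the 6 fits without 1 library). Dcn reached the count minimum in the knockout libraries alone, DESeq2 called 2 of the list higher, and the summed level was 14.8 to 22.3 CPM in WT and 21.6 to 25.3 CPM in the knockout. The defining osteoblast genes Sp7, Bglap and Ibsp reached at most 0.0669, 0.0224 and 0.133 CPM in any library, and Omd had no read (all 4 chosen after their values were seen). Of 6 tested lymphocyte markers 1 rose, Pax5, at a summed 47.9 to 51.3 CPM in WT and 47.8 to 54.1 CPM in the knockout. No dendritic cell marker of 8 tested was called by edgeR, DESeq2 or limma-voom, with 2 higher at an unadjusted p of 0.05 (11.2% of all genes). Their summed level was 21.6 to 24.1 CPM in WT and 21.1 to 23.7 CPM in the knockout. Of the 12 macrophage markers 4 rose, Csf1r among them, and 2 fell, Marco among them. Marco went from 3477 ± 179 CPM in WT to 2257 ± 45.4 CPM in the knockout (log2 fold change -0.62, edgeR BH-adjusted p = 0.000149). The part of these markers in the differences of Dcstamp, Atp6v0d2 and Acp5 was not tested.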

How the data were processed

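Raw read counts, 1 column a library for 6 libraries and 1 line an Ensembl gene, are what the authors deposited, per the file headers, and 0 columns of values were left unused. The submitters' processing notes name FastQC 0.11.2 and cutadapt 1.9, as well as Subread, featureCounts 1.4.6-p4, and edgeR 3.18.1. They name the builds mm10 and GRCm38. The sources used here do not give tool roles, the annotation release or the strand setting.

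Of the gene identifiers, 46488 matched GENCODE mouse release 21 (GRCm38), the source of symbols, positions and exon lengths for RPKM. The low-count filter was filterByExpr at 10 counts, scaling was TMM, and edgeR 4.0.16 in R 4.3.3 fitted genotype alone (glmQLFit, legacy false). The SE is the size of the log2 fold change divided by the root of F. Alternatives were DESeq2 1.42.0, limma-voom (limma 3.58.1), other scalings and filters, a trend on length and GC content (mgcv 1.9.3), the replicate block and leaving out each library. Counts were simulated for this comparison with the trended dispersion alone, and 15948 genes were run. Changes were planted in genes above 1 CPM only, 100 of size 1 and 100 of size 0.5 (log2). Of these 98% and 88% were recovered, and 5 of 191 calls were false. Dcstamp, at a mean of 0.471 CPM, lay below this range. Near-identical stretches were sought with BLAST+ 2.17.0 (at least 95% identity over 100 bases). Replicates differed beyond sampling noise (chi-square per degree of freedom 5.565 to 19.19).

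The 8 members, the 15 gene lists and the tests were chosen with earlier results of these data known. Of 254 list genes 253 were matched. Named were the 8 members, Mtdh, Tnfsf11, Tnfrsf11b, Csf1r and Traf6, up to 5 called genes of each list with the smallest p (or 2 without a call), tested genes within 1 Mb of Dcstamp and the genes most like each called member; others are marked as chosen after their values were seen.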

Additional observations from a re-analysis of the deposited data

How the results depend on the processing

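The 3 calls among the 8 genes remained under all scalings and filters that kept the gene, and under limma-voom and the legacy and robust fits. Dcstamp was left out at 1 CPM in 3 libraries, and DESeq2 gave it no adjusted p. With the replicate number as a block, Acp5 (-0.36, adjusted p = 0.0729) and Atp6v0d2 (0.42, adjusted p = 0.0921) lost their calls, so 1 of the 8 genes was called, with 7 pathway genes, 8 genes within 5 Mb of Dcstamp, and 227 genes in all, 113 higher and 114 lower. Same-numbered libraries deviated in opposite ways (r = -0.274, -0.173 and -0.251), and the other pairs had r from 0.0572 to 0.194. Deviations from the mean of 3 libraries are tied to each other, so these values cannot settle whether the numbers pair libraries. With the length and GC trend removed, 2313 genes were called, 995 higher and 1318 lower, 50 of them pathway genes; the cause was not tested. Leaving out each library gave 380 to 1092 calls, 184 to 518 higher and 196 to 574 lower, in fits with fewer samples. It gave 14 to 31 pathway genes, 9 to 15 genes near Dcstamp and 2 to 3 of the 8 genes. Across these fits the log2 fold change of Atp6v0d2 was 0.37 to 0.51, of Nfatc1 -0.03 to 0.08, of Tnfrsf11a -0.03 to 0.00 and of Ctsk -0.14 to 0.01, so the direction of the last 3 was not fixed. Of 54 other called genes that the naming rule picks, not all described above, 33 were called without each library, 31 lost the call under the block, and none reversed in any setting. Fcer1g and Mitf, outside the rule, also lost their calls under the block (adjusted p = 0.152 and 0.222). Oscar, Ocstamp and Tnfsf11 are limited by depth.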

Other observations

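Genes whose log2 CPM ran most like that of a called member over the 6 libraries were sought among the 10627 tested genes that averaged 5 CPM or more. For Acp5 these were Coro2a, Calm3 and Pgbd5 (Pearson's r = 0.9953, 0.9952 and 0.9945). For Dcstamp they were Acvr2a, Foxo1 and Dnajb9 (r = 0.9911, 0.9904 and 0.9890), and for Atp6v0d2 Socs6, Ppp1cc and Emp1 (r = 0.9927, 0.9900 and 0.9898). With 6 libraries in 2 groups and so many genes compared, values of this size describe these libraries only. The changes themselves were of unequal size: the log2 fold change was 0.26 for Acvr2a and 0.17 for Foxo1 (edgeR BH-adjusted p = 0.0793 and 0.145), beside 3.34 for Dcstamp. Acvr2a overlaps Orc4 on the other strand, and Foxo1, Ppp1cc, Calm3, Coro2a and Socs6 share near-identical stretches with other genes, so their values are uncertain. The call of Emp1 was lost with no low-count filter (edgeR BH-adjusted p = 0.0715).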
